A study of Mus musculus with 35 samples.

Results

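Cells labelled as CD8+ resident memory T cells (Trm) came from the mouse liver. They were compared with cells labelled as circulating CD8+ effector memory T cells (Tem) of peripheral blood. The comparison takes the 5 arrays titled as liver Trm and the 6 arrays titled as blood Tem, 11 of the 35 arrays of the series, and covers the 8621 genes that passed a filter on dim probes. Lung and intestine Trm (n = 6 each) entered the fit only to estimate the spread between arrays. Whole liver and whole blood mononuclear cells (PBMC, n = 3 each) were used to separate genes of T cells from genes that are bright in the unsorted organ, since the whole organs were collected to control for parenchymal cells in the sorted samples. All groups came from C57BL/6 mice that were healthy, wild type and female, at 8 to 16 weeks of age, and none carried a transgene or a treatment in the labels. For liver Trm, livers were dissociated enzymatically, mononuclear cells were enriched on a Percoll gradient, and 2 rounds of magnetic selection took cells bearing CD8b and then CD103, the integrin chain encoded by Itgae. Tem were blood cells selected on CD8b in a magnetic round and then passed through a depleting round. Both populations came from the same animals, but the labels do not say which arrays share an animal, and they give no purity for either sort. P-values therefore measure only the spread between these samples. Whole liver had been dissociated and not sorted. Tissue and preparation thus differed together between liver Trm and Tem, so their parts in any difference cannot be told apart.

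Resident memory T cells stay in a tissue after an infection or other priming and do not recirculate through blood and lymph. They are known for CD69, which holds the egress receptor S1pr1 inside the cell, and for low expression of S1pr1 and of its activator Klf2. In the liver they patrol the sinusoids, the capillaries between plates of hepatocytes, where they touch sinusoidal endothelium and Kupffer cells, and in mice the receptor Cxcr6 is known to keep them there. Circulating effector memory cells of mice are known for the fractalkine receptor Cx3cr1, the lectin receptor Klrg1 and stores of granzymes.

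Levels are log2 intensities relative to the 75th percentile of bright probes on the same array, so a level of 0 lies at that percentile and a difference of 1 is a factor of 2. Liver Trm values are listed in the order of arrays 1, 2, 3, 5 and 6. Between 12.2% and 26.4% of probes were well above background on the liver Trm arrays and between 25.6% and 35.5% on the Tem arrays. Liver Trm 3 was the lowest, the next being 22.6%, and Tem 3 the highest. The negative control signal was 907 on Tem 3, against 4618 to 5826 on the other Tem arrays. Liver Trm 3 and Tem 3 were left out together as an alternative. Rank correlations across probes, which are not independent replicates, ran from 0.793 to 0.928 among liver Trm arrays and from 0.818 to 0.937 among Tem arrays. The first principal component of the 11 arrays, with 55.6% of the variance, set liver Trm 3, 5 and 6 (-95.9 to -109) apart from liver Trm 1 and 2 (-22.8 and 6.87), and put Tem 3 (139) beyond the other Tem arrays (24.5 to 50.2). Whole PBMC 1 was dim, with 7.80% of probes above background, and whole liver 2 was bright, with 64.7%. Whole organs and PBMC were on other slides and another scan day than the sorted cells, so batch and sorted status cannot be told apart. Calls were made where limma gave an adjusted p under 0.05, with Benjamini-Hochberg adjustment over all genes tested, and differences are given ± SE.

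In liver Trm 1288 genes were called higher than in blood Tem (14.9% of those tested) and 2189 lower (25.4%), with a median difference over all genes of -0.28. These shares are the scale for the list counts below that name no other setting. Counts under another scaling are to be set against the calls of that scaling over all genes, given in the next paragraph. Without liver Trm 3 and Tem 3 those calls were 526 higher and 1248 lower of 8394 genes. The groups did not overlap in 1238 genes (14.4%), and 2346 of the 3477 called genes ran in the same direction on each of the 5 slides that hold an array of both groups. The lower calls were mostly of bright genes: 2016 of them were above background on all 6 Tem arrays. Among the higher calls 396 were above background on all 5 liver Trm arrays, 323 on fewer than 3 of them, and 32 on no array of either group. Probes that were above background on no sorted-cell array had a median 1.33 higher in liver Trm, which bears on dim genes called higher. Leaving out any 1 of the 11 arrays kept 710 of the higher and 1150 of the lower calls.

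How many genes were called in each direction depended on the scaling. The T cell receptor, CD3 and CD8 genes described below had a median 0.49 lower in liver Trm than in Tem. When every array was instead scaled to its median over those 23 genes, a choice made after seeing the data, the median of all genes moved up by 0.71 and the calls became 1728 higher and 279 lower, so that 86.1% of the calls were higher, against 37% before. With the 75th percentile taken over all probes the median moved by -0.47, and 965 genes were called higher and 3898 lower, 19.8% of the calls being higher. All 1288 higher calls were also called higher relative to the T cell receptor genes, the 279 genes called lower there were among the 2189, and no call changed direction. Both scalings are named below where they end the call of a gene given with its values by array, or change what a list shows, and the first is called scaling to the T cell genes.

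Genes bright in whole liver were then set apart. Whole liver had 2868 genes called higher than whole PBMC (27.0% of 10635 tested on all 35 arrays), called liver-enriched here, and 350 called lower (3.29%), called blood-enriched. Of the 2223 liver-enriched genes among the 8621, 362 were called higher in liver Trm than in Tem (16.3%) and 511 lower (23%), shares near those over all genes. This class is not confined to genes of liver cells. It held 33 of 35 respiratory chain and 19 of 25 proteasome genes tested, and 1 of the 3 PBMC arrays behind it was dim. Of the 329 blood-enriched genes, 11 were called higher (3.34%) and 169 lower (51.4%), with a median difference of -0.95. Whole lung and whole intestine in place of PBMC gave another picture. Of the 1162 genes called higher in whole liver than in those organs, 645 were called higher in liver Trm than in Tem (55.5%) and 30 lower (2.58%). Among the 945 genes above background on no whole liver array, 32 were called higher (3.39%) and 391 lower (41.4%).

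Set directly against whole liver, liver Trm had 918 genes called higher (8.63%) and 2493 called lower (23.4%). Of the 1288 genes higher than in Tem, 308 were lower than in whole liver, 918 were not called against whole liver, and 62 were above both (0.719% of the genes tested). This last group is described at the end. The comparisons share the liver Trm arrays, and the classes share the whole liver arrays with the comparison against whole liver, so these counts are descriptions.

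**Figure D1:**
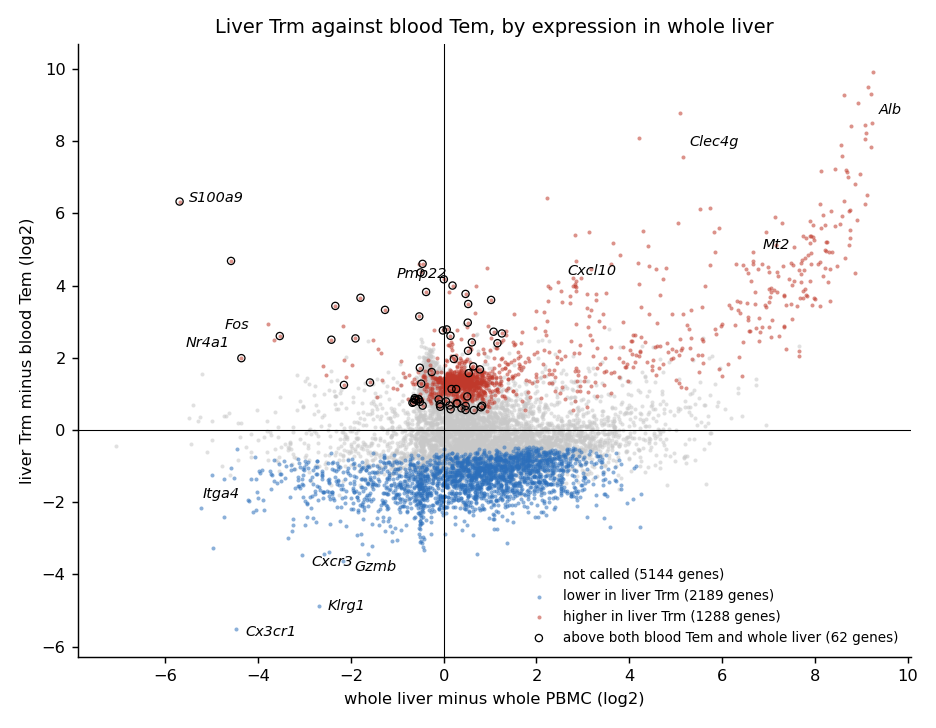
Each point is 1 of the 8621 genes, with the difference between whole liver and whole PBMC on the x axis and the difference between liver Trm and blood Tem on the y axis, both in log2. The upper right holds plasma protein genes such as Alb with large positive values on both axes, Cx3cr1 and Klrg1 lie at the lower left, and the 62 circled genes, called higher than both Tem and whole liver, lie between -6 and 2 on the x axis.

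Genes of hepatocytes, which make most plasma proteins, rose in liver Trm, relative to blood Tem, in nearly every case that could be tested. Of 23 plasma protein genes tested, 22 rose and none fell, with a median difference of 6.44. Apolipoprotein and lipid genes rose in 15 of 17 cases, cytochrome P450 and detoxification genes in 14 of 16, genes of amino acid, urea and glucose metabolism in 13 of 14, and complement and coagulation genes in 10 of 11, with medians of 4.60, 4.41, 4.59 and 4.49. The exception that fell was Cpt1a, which carries fatty acids into mitochondria and which T cells also use, at least 1.14-fold lower (adjusted p = 0.0322 in limma) and above background on no liver Trm array. Its other probe was called the other way, and its own call was lost without any one of 7 arrays (highest adjusted p 0.0959). The rise in these 5 lists kept its direction under both other scalings. The filter on dim probes kept 23 of the 29 plasma protein genes listed. It kept 17 of 27, 16 of 27, 14 of 25 and 11 of 27 in the other lists, in that order. A gene above background on fewer than 3 Tem arrays passed only where at least 3 arrays of a Trm group had it above background. High shares among the tested genes thus follow in part from the filter.

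Serpina1c, an alpha-1-antitrypsin gene, was the gene with the largest difference under the naming rule. Its levels were -0.03, -0.48, 3.11, 2.36 and 1.24 in liver Trm, against a lowest of -10.41, a median of -8.41 and a highest of -7.89 in Tem. It was above background on all 5 liver Trm arrays and on no Tem array, so the difference of 9.92 ± 0.57 (adjusted p = 1.50e-10 in limma) is given as at least 201-fold higher. Lower bounds of this kind, here and below, compare the mean of the bright group with the dimmest detectable signal of each array where the gene was not detected. The near-identical Serpina1a and Serpina1e, whose probes may share signal with it, were at least 238-fold and at least 159-fold higher. Alb, the serum albumin gene, had -1.48, -2.29, 2.25, 1.46 and 0.26 in liver Trm, against a lowest of -10.16, a median of -8.17 and a highest of -7.70 in Tem, and was at least 87.5-fold higher (adjusted p = 1.31e-09). Its 5 liver Trm values spanned more than 4 log2 units, with arrays 3, 5 and 6 high and arrays 1 and 2 low, and did not overlap with Tem.

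Other hepatocyte genes were again higher on arrays 3, 5 and 6 than on arrays 1 and 2. Ahsg, the fetuin gene, had -0.53, -0.97, 2.81, 2.24 and 1.16, Apoc1 -1.23, -1.88, 2.55, 2.27 and 0.95, and Fabp1, the liver fatty acid binding protein, -2.36, -2.36, 2.04, 2.51 and 1.02 in liver Trm, and none was above background in Tem. Their bounds were at least 164-fold, 123-fold and 95.9-fold higher. Trf, the transferrin gene, had -0.14, -0.53, 3.11, 2.32 and 1.40 in liver Trm, against -8.32 to -6.41 in Tem, where 1 of 6 arrays was above background. Enzymes of the liver lobule followed: the betaine enzyme Bhmt and the gluconeogenic Fbp1 were at least 52.5-fold and 28-fold higher. Cyp2e1, a cytochrome P450 of the cells around the central vein, was at least 12.2-fold higher, while Gsta3 and Adh1 were at least 30.9-fold and 24.4-fold higher. Complement C3 had -0.42, -1.27, 2.69, 1.65 and 0.49 in liver Trm, against -8.33 to -5.11 in Tem, where 2 of 6 arrays were above background.

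These genes were not all as bright in liver Trm as in the organ. Against whole liver, Serpina1c differed by -0.59 (adjusted p = 0.542) and Alb by -1.86 (adjusted p = 0.0687), neither of them called. Hpx, which binds free haem, was -2.99 (adjusted p = 2.95e-04), Cyp2e1 -4.32 (adjusted p = 1.62e-05) and C4b -3.65 (adjusted p = 7.59e-07) relative to whole liver in limma, all called lower in liver Trm. On the scale of all 35 arrays the plasma protein list had medians of -3.47, -4.09, -0.59, -0.78 and -1.67 in liver Trm, against 0.82, 0.82 and 0.99 in whole liver. Liver Trm 3 and 5 were thus within 2 log2 units of whole liver, and liver Trm 1 and 2 were more than 4 units below it.

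Markers of the liver sinusoid were higher too. The sinusoidal endothelial list had 8 of 9 tested members called higher, with a median of 4.53, and the Kupffer cell list 6 of 11, with a median of 1.83. Each list held 20 genes before the filter on dim probes, which limits these shares as above. Clec4g, a lectin of sinusoidal endothelium, had -3.45, -0.66, -0.22, -0.23 and -0.35 in liver Trm, against a lowest of -10.29, a median of -8.22 and a highest of -7.74 in Tem. Array 1 was low, the other 4 arrays lay close together, and no value overlapped with Tem, for a bound of at least 43.1-fold higher (adjusted p = 5.43e-10 in limma). Stab2, the hyaluronan scavenger receptor of the same cells, had -4.12, -2.33, -1.22, -1.68 and -2.88 and was at least 15.6-fold higher. Neither was called lower than in whole liver: Clec4g differed by 0.99 (adjusted p = 0.174) and Stab2 by -0.74 (adjusted p = 0.272), and the list median against whole liver was -0.41, against -2.78 for plasma proteins. Whether the 2 lists differ in this was not tested. Clec4f, the lectin that marks Kupffer cells in mice, was 4.38-fold higher than in Tem (adjusted p = 2.58e-04) and -1.65 relative to whole liver (adjusted p = 0.00189).

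Markers of other blood and tissue cells differed in part. Neutrophil and mast cell markers had 6 of 9 tested members called higher, led by the calprotectin genes S100a9 and S100a8, and Camp, Lcn2, Mmp8 and Retnlg. S100a9, S100a8, Camp, Lcn2 and Retnlg were above background on 5, 4, 3, 4 and 2 liver Trm arrays, against 2, 1, 1, 1 and 0 Tem arrays. The list median per array was -4.98, -2.75, -4.97, -2.02 and -2.19 in liver Trm, against -3.56 in Tem 2 and -6.63 to -10.19 in the other Tem arrays. Liver Trm 2, 5 and 6, together with Tem 2, were the arrays high in these genes. Stellate and cholangiocyte markers had 2 of 9 called higher, the keratins Krt18, above background on all 11 arrays, and Krt19, above background on 2 liver Trm and no Tem arrays. MHC class II genes had 1 of 8, H2-DMa, above background on 4 liver Trm and 6 Tem arrays, which was not called when the 75th percentile was taken over all probes. B cell and plasma cell markers had 0 of 8 called, and the gamma-delta and innate-like list 0 of 4. Of 9 CD4 and regulatory T cell markers, only Tnfrsf18, which activated CD8+ T cells also carry, was called, and it was lower (-1.50), a call lost with scaling to the T cell genes. The calls of Krt19 and H2-DMa were also lost without single arrays (highest adjusted p 0.0853 and 0.103), and Mmp8 was above background on no array of either group. Many defining markers, such as Cd79a, Pax5, C1qa, Vsig4, Lyve1 and Mpo, did not pass the filter on dim probes in the sorted cells. The part that RNA of these other cells has in any result below was not tested, and in such bulk samples fewer cells of a type and less RNA per cell cannot be told apart.

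The sorted cells carried the transcripts of CD8+ T cells in both groups. The T cell receptor, CD3 and CD8 list had medians of -0.16, -0.43, -1.04, -1.68 and -0.92 in liver Trm, against -0.07, -0.16, -0.52, 0.05, -0.14 and 0.03 in Tem 1 to 6. On the scale of all 35 arrays whole liver had -8.87, -5.19 and -8.43 for the same genes. Liver Trm 1 thus lay within the Tem range, and liver Trm 2 did so only because of Tem 3. Liver Trm 3, 5 and 6, the arrays with the most plasma protein signal, lay below the Tem range. Of the 23 genes, 5 were called lower (Cd8a, Cd8b1, Zap70, Sit1 and Txk), none was called higher, and the list's median of -0.49 was near the -0.28 of all genes. Single arrays ended the calls of Zap70 (liver Trm 5, adjusted p = 0.0642 without it), Sit1 (liver Trm 5 or 6) and Txk (liver Trm 3 or 6). Scaling to these genes leaves 1 of them lower and 2 higher, and turns the list's median difference to 0.22.

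Cd8b1, which encodes the CD8b chain both sorts selected, had -1.11, -0.77, -1.98, -2.33 and -1.21 in liver Trm, against a lowest of -0.44, a median of -0.36 and a highest of 0.02 in Tem, and was -1.18 ± 0.34 (adjusted p = 0.0126 in limma). The groups did not overlap, liver Trm 2 being the highest and liver Trm 5 the lowest of the liver arrays. The call was lost without liver Trm 3 and Tem 3, and with scaling to the T cell genes, where the difference was -0.47 (adjusted p = 0.202). Cd8a, its partner chain, was -1.04 ± 0.37 (adjusted p = 0.0317), with overlapping values, and its call was lost without any one of liver Trm 3, 5 and 6 and Tem 2 and 4 (highest adjusted p 0.101). Cd3e, a signalling chain of the receptor, was not called (-0.49 ± 0.23, adjusted p = 0.0953), although it was called lower with scaling over all probes and with normexp background correction. Cd8a, Cd8b1 and Cd3e were all called higher than in whole liver, where they were above background on 0, 0 and 1 of 3 arrays. Itgae, which encodes the CD103 chain used for the sort, had no probe matched to it here and could not be checked.

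**Figure D2:**
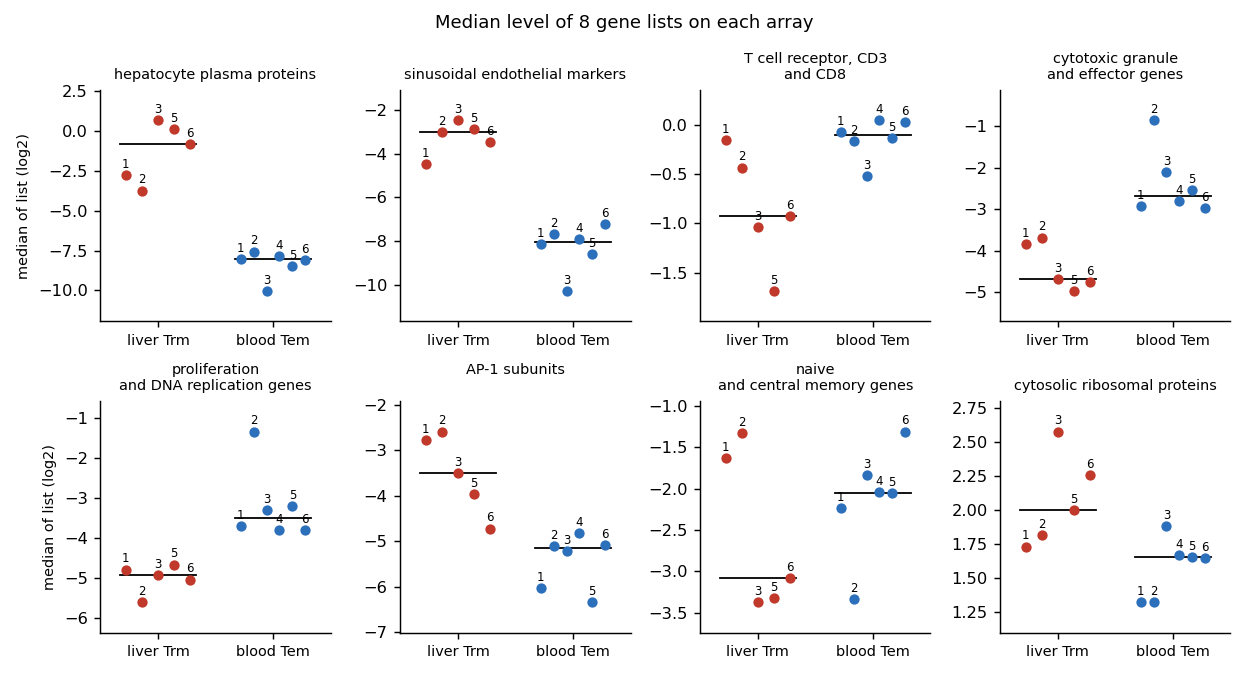
Each point is the median log2 level of a gene list on 1 array, with liver Trm at the left and blood Tem at the right of each panel, the array number above the point and a line at the group median. Plasma protein and T cell receptor medians ran opposite ways across the liver arrays (0.66 and -1.04 in liver Trm 3, -3.75 and -0.43 in liver Trm 2), and Tem 2 was the highest Tem array for cytotoxic (-0.86) and proliferation genes (-1.35) and the lowest for naive and central memory genes (-3.33). With scaling to the T cell genes the median differences of the naive and central memory and T cell receptor lists turn positive (0.40 and 0.22), and the ribosomal protein difference is at or just below 0 with quantile normalization and with scaling over all probes (-0.04).

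Some receptors of effector T cells that stay in the circulation were lower in liver Trm, though most of their list was not called. Of 22 circulation-associated genes, 8 fell, against 25.4% lower over all genes, 2 rose and 12 were not called, with a median of -0.62. With scaling to the T cell genes 4 fell, 4 rose and the median turned to 0.09. Cx3cr1, the fractalkine receptor of patrolling effector cells, had -6.81, -8.16, -5.67, -6.57 and -7.09 in liver Trm, against a lowest of -2.50, a median of -1.41 and a highest of 0.25 in Tem. Every liver array lay below every Tem array, and none of the liver arrays was above background, so it was at least 13.1-fold lower (adjusted p = 2.18e-04 in limma). Klrg1, an inhibitory lectin receptor of short-lived effector cells that binds cadherins, had -7.61, -8.23, -5.88, -7.31 and -7.18, against a lowest of -3.73, a median of -2.44 and a highest of -0.88 in Tem, and was at least 6.49-fold lower (adjusted p = 8.05e-06). Both remained called with scaling to the T cell genes (-4.80 and -4.16). S1pr5, an egress receptor of terminal effector cells, was called lower too (adjusted p = 0.00251), above background on 5 Tem arrays and on no liver Trm array, with no fold given since its bound is under 1.

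Homing receptors and integrins were mostly not called. Among 20 chemokine receptors and integrins of T cell homing, 8 fell (25.4% of all genes fell), 11 were not called and 1 rose, the chemokine receptor Cxcr4 (1.25 ± 0.41, adjusted p = 0.0212 in limma, and 0.051 without Tem 3), and the list median of -0.33, near that of all genes, turned to 0.38 with scaling to the T cell genes. Cxcr3, which guides effector cells to inflamed tissue, had -4.28, -3.19, -4.93, -3.84 and -4.93 in liver Trm, against a lowest of -1.17, a median of -0.92 and a highest of 0.30 in Tem. It was 11.1-fold lower, with no overlap between the groups, and Tem 2 was far above the other Tem arrays. Itga4, the chain of VLA-4, had -1.54, -1.45, -2.57, -2.66 and -2.90 in liver Trm, against a lowest of -1.05, a median of -0.30 and a highest of 0.23 in Tem, and was 3.69-fold lower (adjusted p = 9.04e-04). Itgal and Itgb2, the chains of LFA-1, were -2.21 ± 0.52 and -1.53 ± 0.36, and the call of Itgal was lost with quantile normalization, normexp, the deposited values, and a fit of only the groups compared. Cxcr3 and Itga4 remained called with scaling to the T cell genes, at -2.77 (adjusted p = 0.00536) and -1.17 (adjusted p = 0.00983).

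Of genes known to separate recirculating from resident memory cells, S1pr1, Klf2 and Ccr7 were not called lower in liver Trm. The names Trm and Tem are those of the labels, and residency itself was not measured. S1pr1, the egress receptor itself, had -0.86, -0.41, -1.40, -1.76 and -1.57 in liver Trm, against a lowest of -2.01, a median of -1.03 and a highest of -0.27 in Tem, a difference of -0.14 ± 0.42 (adjusted p = 0.795 in limma). Klf2, the factor that activates S1pr1, had 1.78, 1.64, 1.38, 1.06 and 1.43, against a lowest of -0.02, a median of 1.06 and a highest of 1.25, and was 0.57 ± 0.27 (adjusted p = 0.0934). Neither was called, the groups overlapped in both genes, and Klf2 was called higher (1.28) with scaling to the T cell genes. Ccr7, the lymph node chemokine receptor of naive and central memory cells, had 1.65, 1.60, 2.38, 1.80 and 2.03 in liver Trm, against a lowest of -0.32, a median of 1.37 and a highest of 2.24 in Tem, and was not called either (adjusted p = 0.12), but it was called higher without Tem 3 and with scaling to the T cell genes (1.41).

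**Figure D3:**
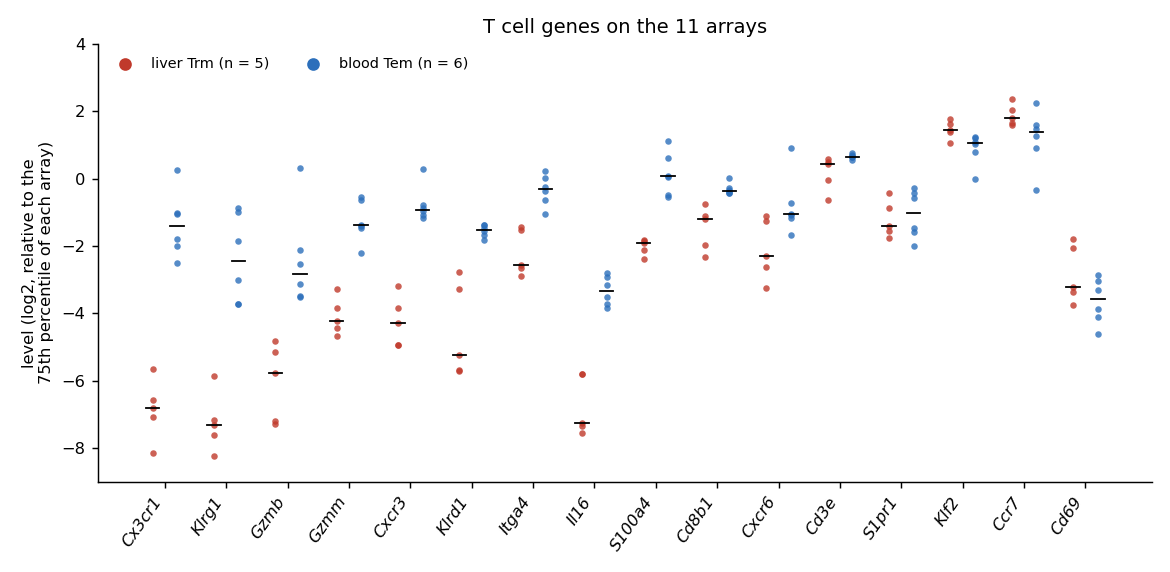
Each point is the log2 level of a gene on 1 array, relative to the 75th percentile of that array, with the 5 liver Trm arrays left of the 6 blood Tem arrays and a line at each group median. Cx3cr1, Klrg1, Gzmm and Itga4 do not overlap between the groups, whereas S1pr1, Klf2 and Ccr7 do, and Cd69 is not separated; Cd69, Klf2 and Ccr7 were called higher, and Cd8b1, Cxcr6 and S100a4 no longer called, with scaling to the T cell genes.

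Residency genes were mixed. Of 27 tested, 6 rose (P2rx7, Dusp6, Osgin1, Nr4a1, Nr4a2 and Ppp1r15a), 4 fell (Cxcr6, Rgs1, Crtam and Isg20) and 17 were not called, with a median of 0.41 that turned to -0.07 with scaling over all probes. Over all genes 14.9% rose and 25.4% fell. Scaling to the T cell genes gave 11 higher and 1 lower among the residency genes. The calls of P2rx7, Dusp6, Osgin1, Nr4a2, Rgs1 and Isg20 were each lost without at least 1 single array, liver Trm 3 among them for all but Dusp6, which was lost without liver Trm 1 or Tem 3. Cd69 had -2.07, -1.79, -3.36, -3.75 and -3.23 in liver Trm, against a lowest of -4.62, a median of -3.59 and a highest of -2.85 in Tem. Liver Trm 1 and 2 were above every Tem array and the other 3 were inside the Tem range, so that the difference of 0.79 ± 0.43 was not called (adjusted p = 0.136 in limma), although it was with scaling to the T cell genes (1.50, adjusted p = 0.0168). Cxcr6, the receptor for Cxcl16 on sinusoidal endothelium, had -1.12, -1.26, -2.63, -3.24 and -2.30 in liver Trm, against a lowest of -1.67, a median of -1.06 and a highest of 0.91 in Tem. The difference was -1.32 ± 0.44 (adjusted p = 0.0224), with overlap, and its call was lost without any one of liver Trm 3, 5 and 6 and Tem 2 (highest adjusted p 0.0799), with normexp, with a fit of only the groups compared, and with scaling to the T cell genes, where the difference was -0.61. Crtam, an adhesion receptor of activated CD8+ T cells, was -2.13 ± 0.59 (adjusted p = 0.01), lost without liver Trm 3 and Tem 3 together. Rgs1, a regulator of chemokine receptor signals that marks resident cells in many tissues, had -2.40, -2.17, -3.95, -4.17 and -3.98 in liver Trm and -3.54 to 0.38 in Tem, -1.58 ± 0.58 (adjusted p = 0.0331, and up to 0.101 without single arrays). The Rgs1 call was lost with scaling to the T cell genes, where Crtam was the 1 residency gene still lower (-1.42). Prdm1, which encodes Blimp-1, was above background on 1 liver Trm and 2 Tem arrays, and Zfp683, its relative Hobit, and Itga1 were not tested.

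Most killing genes were lower. Of 19 cytotoxic granule and effector genes, 12 fell and 1 rose, with a median of -1.38. Over all genes 25.4% fell and 14.9% rose. With scaling to the T cell genes 5 fell, against 279 of all 8621 genes, the median being -0.67. When single arrays were left out 6 to 12 fell. Gzmb, the granzyme of active killer cells, had -5.14, -4.83, -5.77, -7.30 and -7.21 in liver Trm, against a lowest of -3.51, a median of -2.84 and a highest of 0.32 in Tem. No value overlapped, only liver Trm 1 and 2 were above background, and Tem 2 was set apart at the top, so that the 12.5-fold difference (adjusted p = 0.00785 in limma) takes in a wide spread of Tem. Gzmm, a granzyme of innate-like killer cells, had -3.85, -3.27, -4.69, -4.44 and -4.24, against a lowest of -2.20, a median of -1.39 and a highest of -0.55 in Tem, 7.09-fold lower with tight groups (adjusted p = 5.17e-05). Serpinb6b, a granzyme inhibitor, and Unc13d, which primes granules for release, were 10.8-fold and 6.17-fold lower, and above background on 2 liver Trm arrays each. Other effector genes were lower too: Gzma was -3.69 to -0.08 in liver Trm, against 0.77 to 2.27 in Tem (-2.41 ± 0.60), Ccl5 0.51 to 1.11, against 1.27 to 2.39 (-0.93 ± 0.34), and Nkg7 0.44 to 1.08, against 1.33 to 2.12 (-0.76 ± 0.25). The call of Ccl5 was lost without any one of 6 arrays (highest adjusted p 0.0844) and that of Nkg7 without liver Trm 3 or 5 (highest 0.0688). Scaling to the T cell genes moves every difference up by 0.71. That takes away most of the Ccl5 difference and nearly all of the Nkg7 difference. The Prf1 perforin gene (-0.90 ± 0.40, adjusted p = 0.0768) and Ifng (-1.88 ± 0.95, adjusted p = 0.112) were not called, and Prf1 was called lower with quantile normalization, normexp, the deposited values and scaling over all probes. Tnf, the member that rose, was above background on no liver Trm and 1 Tem array, so no fold is given.

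Of 9 lectin receptors of natural killer type, 3 were lower and 2 higher, near the 25.4% lower and 14.9% higher over all genes. Their median of -0.65 turned to 0.06 with scaling to the T cell genes. Klrd1, the CD94 chain of inhibitory receptor pairs, had -3.29, -2.78, -5.68, -5.25 and -5.72 in liver Trm, against a lowest of -1.83, a median of -1.52 and a highest of -1.36 in Tem. Tem was tight, liver Trm 1 and 2 were nearest to it and liver Trm 3, 5 and 6 lay more than 3 units below every Tem array, for a 7.96-fold difference (adjusted p = 0.00191 in limma). Klra1, a Ly49 receptor, and Ncr1, the NKp46 receptor of natural killer cells, were higher by 2.38 and 1.35, above background on 4 and 3 liver Trm arrays, against 1 and 2 Tem arrays. Neither differed from whole liver by a call (0.11 and -0.27). The Ncr1 difference was close to the 1.33 by which probes above background on no sorted-cell array were higher in liver Trm. Plek, a signalling protein of leukocytes named for its size of change, had -7.27, -4.17, -5.47, -6.80 and -6.57 in liver Trm, against a lowest of -3.78, a median of -3.01 and a highest of -1.31 in Tem, and was 9.66-fold lower.

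Transcription factors of effector and memory cells were mostly not called: of 26, 6 fell, near the 25.4% over all genes, and 2 rose. Their median of -0.45 turned to 0.26 with scaling to the T cell genes, where 2 rose and none fell. Runx3, which programs CD8+ T cells for residency, had -6.04, -5.78, -5.58, -7.19 and -7.03 in liver Trm, against a lowest of -5.55, a median of -5.19 and a highest of -4.03 in Tem. Only 1 liver array was above background, and the call (-1.27 ± 0.47, adjusted p = 0.0353 in limma) was lost without any one of liver Trm 5 and 6 and Tem 2 (highest adjusted p 0.106), and with scaling to the T cell genes (-0.56). Tbx21, the T-bet gene of effector cells, was 0.56 ± 0.51 (adjusted p = 0.364), and Eomes, its relative in memory cells, -1.22 ± 0.77 (adjusted p = 0.198), neither called. Id3, which restrains terminal differentiation, and Bcl6, which favours memory, rose by 2.16 and 1.76, above background on 3 and 4 liver Trm arrays. Tcf7, the TCF-1 gene of naive and memory cells, had -1.64, -1.54, -2.85, -2.90 and -2.70 in liver Trm, against a lowest of -3.29, a median of -1.35 and a highest of -1.26 in Tem. It was not called (-0.59 ± 0.39, adjusted p = 0.22), but was called lower without Tem 2, the lowest Tem array.

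Naive and central memory genes had 5 of 25 lower and none higher, with a median of -0.31, near that of all genes, and 2 higher and none lower with scaling to the T cell genes, where the median turned to 0.40. Ms4a4b, a membrane protein of naive and Th1 cells, had -0.21, -0.61, -0.86, -0.79 and -0.30 in liver Trm, against a lowest of 0.51, a median of 0.70 and a highest of 0.94 in Tem, and was 2.39-fold lower with no overlap. Its call was lost with scaling to the T cell genes (-0.55). Il7r (-0.65 ± 0.46) and Cd44 (-0.53 ± 0.27), the receptors by which memory cells are often recognised, were not called (adjusted p = 0.243 and 0.119 in limma). Il7r was called lower without Tem 2, and Cd44 with scaling over all probes and with the mean of all probes of the gene.

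Cytokine receptors and their signal transducers fell in 10 of 34 cases, near the 25.4% lower over all genes, and rose in 2, with a median of -0.62 that turned to 0.09 with scaling to the T cell genes, where 3 fell and 3 rose. Il12rb1, a chain of the IL-12 and IL-23 receptors, had -4.83, -6.31, -5.56, -7.05 and -6.87 in liver Trm, against a lowest of -4.02, a median of -3.47 and a highest of -1.42 in Tem, and was 7.41-fold lower. Il18r1, which senses IL-18, was 4.59-fold lower with overlap, and both had Tem arrays above background throughout but 1 and 2 liver arrays. Smad3, which carries TGF-beta signals to the nucleus, had -3.76, -3.67, -4.88, -5.33 and -4.83, against a lowest of -2.52, a median of -2.14 and a highest of -1.10 in Tem, and was 5.58-fold lower without overlap (adjusted p = 1.44e-04 in limma). Il12rb1, Il18r1 and Smad3 remained called with scaling to the T cell genes (-2.18, -1.49 and -1.77), and Cish, a feedback inhibitor of cytokine receptors, did not (-1.06). Il2rb, the shared chain of the IL-2 and IL-15 receptors, lay at 0.18, 0.13, 0.22, -0.09 and 0.37 in liver Trm, against a lowest of -0.42, a median of 0.14 and a highest of 1.27 in Tem, with no difference called (-0.06 ± 0.31, adjusted p = 0.874).

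Cytokines and chemokines rose in 7 of 18 cases, against 14.9% over all genes, and fell in 4. Of the 7, only 1 was above background on all liver Trm arrays, and the list median of 1.01 lay below the 1.33 by which probes above background on no sorted-cell array were higher in liver Trm. The 4 that fell are made by T cells: Il16, a chemoattractant for CD4+ cells, Ltb, which builds lymphoid tissue, Ccl4 and Ccl5. The calls of Ltb and Ccl4 were lost without any one of 5 arrays each, liver Trm 3, 5 and 6 among them (highest adjusted p 0.0779 and 0.109). Il16 had -7.57, -5.79, -5.81, -7.34 and -7.26 in liver Trm, against a lowest of -3.84, a median of -3.35 and a highest of -2.81 in Tem, and was lower without overlap (-3.42 ± 0.41, adjusted p = 4.49e-06 in limma). Most of the 7 that rose are known mainly from other cells than T cells, though Tnf is also in the effector list above. The 7 were Cxcl12 and Cxcl10, ligands of Cxcr4 and Cxcr3, Cxcl1, Ccl24, Il18, Il1b and Tnf. Of these Il18 and Tnf were above background on no liver Trm array, and the call of Il1b was lost without liver Trm 5 (adjusted p = 0.052). Cxcl10 had -4.33, -3.81, -1.84, -2.38 and -3.77 in liver Trm, against a lowest of -9.33, a median of -6.85 and a highest of -6.31 in Tem, was at least 9.1-fold higher, and did not differ from whole liver by a call (0.78, adjusted p = 0.361). Cxcl12, above background on 4 liver Trm and no Tem arrays, was at least 6.02-fold higher than in Tem and lower than in whole liver by a difference of -4.23 (adjusted p = 0.00487).

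Genes of the cell cycle were lower in liver Trm than in Tem. Of 26 proliferation and DNA replication genes, 20 fell and none rose, against 25.4% lower over all genes, with a median of -1.64. Under leaving out of single arrays 16 to 20 fell. With scaling to the T cell genes 5 fell, against 279 of all 8621 genes, and the median was -0.93. Ccna2, the cyclin of S phase, had -7.36, -8.00, -5.60, -7.15 and -5.22 in liver Trm, against a lowest of -4.32, a median of -3.59 and a highest of -1.35 in Tem. No liver array was above background, and it was at least 3.31-fold lower (adjusted p = 0.00496 in limma). Kif22, a kinesin of the spindle, was at least 2.42-fold lower, and Rrm2, a subunit of ribonucleotide reductase, at least 3.18-fold lower. All 6 minichromosome maintenance genes on the list, the helicase that opens DNA for replication, fell, by -1.10 in Mcm6 to -2.16 in Mcm2. The list median was -1.35 in Tem 2 and -3.20 to -3.80 in the other Tem arrays, against -4.66 to -5.60 in liver Trm, so that every liver array lay below every Tem array.

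S100, annexin and galectin genes, which mark migrating effector cells, fell in 11 of 22 cases and rose in 3, against 25.4% lower and 14.9% higher over all genes. Their median was -1.01 (8 fell without liver Trm 3 and Tem 3, and 2 with scaling to the T cell genes, where the median was -0.30). S100a4 had -1.81, -2.13, -1.91, -2.38 and -1.85 in liver Trm, against a lowest of -0.55, a median of 0.07 and a highest of 1.13 in Tem. The 5 liver arrays lay within 0.57 of each other and below all Tem arrays, a 4.46-fold difference (adjusted p = 0.0122 in limma), whose call was lost without liver Trm 3 and Tem 3 and with scaling to the T cell genes (-1.45). S100a11 and Lgals3, a galectin of activated cells, were 5.82-fold and 4.78-fold lower, with overlap, and remained called under that scaling. The 3 that rose were S100a1 and the neutrophil genes S100a8 and S100a9. Cytoskeleton and motility genes fell in 10 of 29 cases, against 25.4% over all genes, and rose in none. The actin bundler Lcp1, the Wiskott-Aldrich gene Was, the myosin Myo1g and the GTPase Rac2 were 3.03-fold, 2.31-fold, 2.19-fold and 1.92-fold lower. None of the 29 was lower with scaling to the T cell genes, 1 was higher, the list's median of -0.53 turned to 0.18, and 3 were lower without liver Trm 3 and Tem 3.

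**Figure D4:**
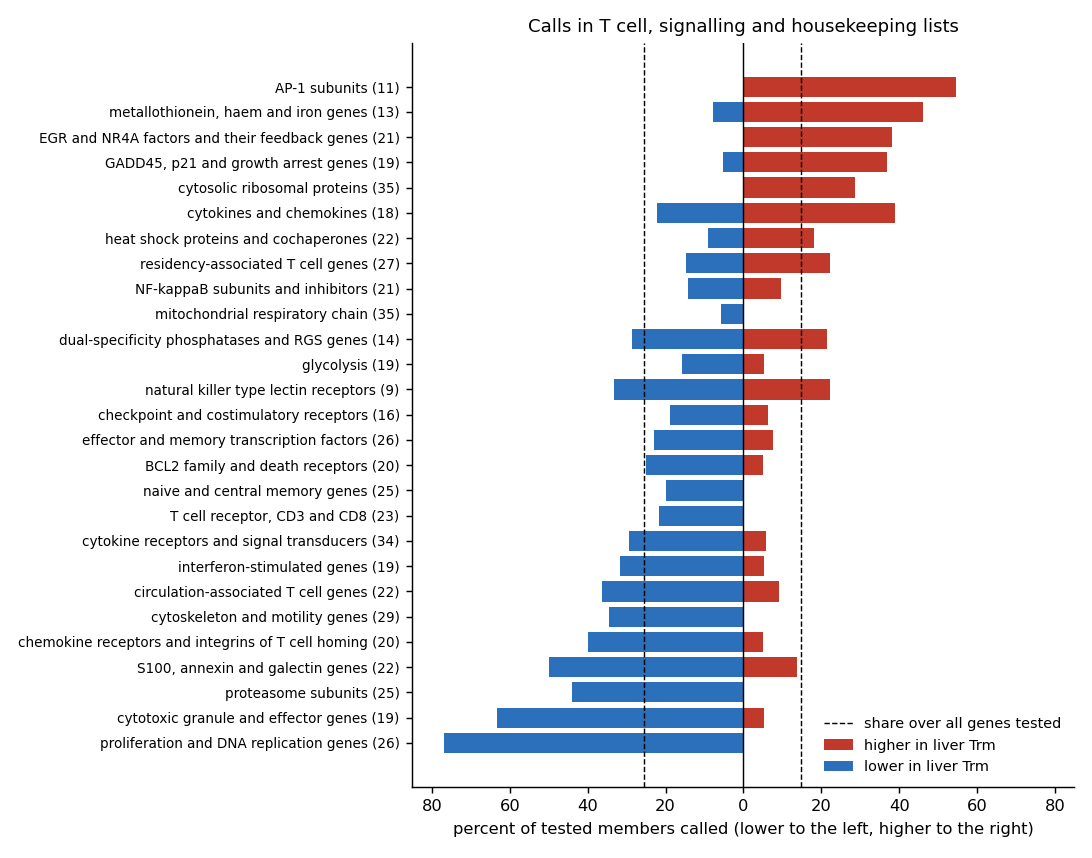
Bars give, for T cell, signalling, stress and housekeeping lists with at least 9 tested members, the percent of tested members called higher (right) and lower (left) in liver Trm relative to blood Tem, with the number tested in brackets and dashed lines at the shares over all genes, 14.9% higher and 25.4% lower. AP-1, metallothionein, EGR and GADD45 lists stand at the top of those drawn and proliferation, cytotoxic and proteasome lists at the bottom; with scaling to the T cell genes the 11 proteasome calls are lost, and with quantile normalization or scaling over all probes the 10 ribosomal calls are lost.

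Immediate early genes ran the other way. These transcription factor genes are switched on within minutes of receptor signals and then fade. Liver Trm came from dissociated tissue and a CD103 round, and Tem from blood and a depleting round. Tissue and preparation therefore cannot be told apart in these genes or in the stress genes below. Of 11 AP-1 subunits tested, 6 rose and none fell (median 1.12, or 0.64 with scaling over all probes, where 4 rose and 1 fell), against 14.9% higher over all genes. Of these 6, Fos, Fosb, Jun and Jund were above background on all 5 liver Trm arrays, whereas Junb was on none and Atf3 on 1, and the Junb call was lost without liver Trm 3, Tem 2 or Tem 3 (highest adjusted p 0.0669). Fos had -2.40, -2.19, -2.56, -3.31 and -3.22 in liver Trm, against a lowest of -7.67, a median of -5.10 and a highest of -4.31 in Tem. The liver values lay within 1.12 of each other and above all Tem values, and the difference was 6.07-fold (adjusted p = 2.18e-04 in limma). Jun, its partner, had -0.53, -0.88, -1.30, -2.11 and -1.83, against a lowest of -4.55, a median of -3.51 and a highest of -2.15 in Tem, 3.91-fold higher without overlap. Liver Trm 1 and 2, the arrays with the least plasma protein signal, had the highest Jun, and Fos was likewise highest in liver Trm 2. Fosb was instead highest in liver Trm 3, the array with the most plasma protein signal. Fosb was 10.8-fold higher with overlap at Tem 2. Jund was 1.66-fold higher (adjusted p = 0.0198), a call lost with scaling over all probes and with a fit of only the groups compared.

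EGR and NR4A factors, which follow antigen receptor signals in T cells, and their feedback genes had 8 of 21 higher and none lower. Over all genes 14.9% were higher. With the percentile taken over all probes 7 of the 21 rose and 3 fell, and the median was 0.29, against 0.77. Nr4a1, the Nur77 gene that tracks the strength of T cell receptor signals, had 0.36, 0.37, -0.31, -1.09 and -1.09 in liver Trm, against a lowest of -3.89, a median of -2.35 and a highest of -0.96 in Tem. Liver Trm 1 and 2 were highest, 1 Tem array reached the lowest liver values, and the difference was 3.97-fold (adjusted p = 0.00485 in limma). Egr1 had -1.66, -2.10, -0.99, -2.05 and -2.31, against a lowest of -6.12, a median of -3.91 and a highest of -2.47 in Tem, 4.64-fold higher without overlap. Egr2 rose too, but it was above background on liver Trm 1 and 2 only. Nr4a2 (1.52, adjusted p = 0.049), Klf4 and Ccn1 were above background on 4, 1 and 0 of the 5 liver arrays, and the call of Nr4a2 was lost without any one of 8 arrays (highest adjusted p 0.118).

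Growth arrest and stress genes rose in 7 of 19 cases, against 14.9% over all genes, and fell in 1 (4 rose and 3 fell with scaling over all probes). Ppp1r15a, the GADD34 subunit that restarts translation after stress, had 1.02, 0.87, 0.94, 0.17 and 0.47 in liver Trm, against a lowest of -2.07, a median of -0.36 and a highest of -0.02 in Tem. All liver arrays were above all Tem arrays, and Tem 3 was far below the rest, for a 2.52-fold difference (adjusted p = 0.00424 in limma). Gadd45g, an inducer of stress kinases, rose by 3.98 ± 0.88, above background on 4 liver Trm and 2 Tem arrays, and Cdkn1a, which encodes the cell cycle inhibitor p21, by 2.24 ± 0.75, above background on 3 and 2 (lost without Tem 3, adjusted p = 0.0518). Cdkn1b, the inhibitor that holds resting T cells out of cycle, was the one that fell (-0.77), a call lost without any one of 4 arrays (highest adjusted p 0.152). Dual-specificity phosphatases and RGS genes split, 3 higher and 4 lower of 14, near the shares over all genes (14.9% and 25.4%). Dusp1, a phosphatase induced with Fos, rose by 1.32 ± 0.36, and Dusp7 was at least 2.79-fold lower. NF-kappaB subunits and inhibitors had 2 of 21 higher and 3 lower, not above those shares.

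Heat shock and metal-responsive genes changed in part. Of 22 heat shock proteins and cochaperones, 4 rose (Hspa1a, Hspb1, Hspa9 and Hspa5), near the 14.9% over all genes, and 2 fell (Dnajb6 and the heat shock factor Hsf1). The list median of 0.36 turned to -0.11 with scaling over all probes. Hspa1a, the inducible HSP70, had -2.90, -3.58, -4.72, -5.66 and -6.07 in liver Trm and -9.94 to -6.74 in Tem, and was at least 3.55-fold higher (adjusted p = 0.0134 in limma). Only liver Trm 1 and 2 were above background, Tem was on none, and signal of its near-identical copy Hspa1b cannot be told apart from its own on a probe that may detect both. Hspa5, the chaperone of the endoplasmic reticulum, was 1.57-fold higher, a call lost with quantile normalization, scaling over all probes, normexp, the deposited values, a fit of only the groups compared, and without liver Trm 3 and Tem 3. Hspa9 was lost without any one of 4 arrays (highest adjusted p 0.0737). Mt1 and Mt2, the metallothioneins that bind zinc and are abundant in hepatocytes, had -3.99, -2.67, -0.44, -0.86 and -2.35 and -3.54, -2.49, -0.87, -1.16 and -1.98 in liver Trm, against ranges of -8.45 to -4.42 and -8.36 to -4.50 in Tem. They were higher by 4.47 ± 0.83 and 4.93 ± 0.94 (adjusted p = 7.95e-04 and 0.00106), were above background on 2 and 1 Tem arrays, had arrays 3, 5 and 6 above 1 and 2 as plasma proteins did, and differed from whole liver by -1.37 and -1.43, not called. Of the 13 metal, haem and iron genes 6 rose, 3 of them the plasma proteins Trf, Hp and Hpx.

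Promoters of 4 of these stress genes are shown because each holds a match to an element known to act in genes of its kind. The windows are the 250 bases before the transcript start, from RefSeq on GRCm38.p6, written 5′ to 3′ on the strand of the gene, with the matches in capitals. The genes were picked after their values were seen, and a match is a description of letters, not a shown binding site. Mt1 lies at chr8:94178839-94179088 on the plus strand and Mt2 at chr8:94172368-94172617 on the plus strand, with capitals at the core of the metal response element (TGCACNC or TGCGCNC, either strand). Hspa1a lies at chr17:34972157-34972406 on the minus strand, with capitals at a heat shock element (GAANNTTC), and Ppp1r15a at chr7:45526269-45526518 on the minus strand, with capitals at a cyclic AMP response element, CRE (TGACGTCA).
Mt1: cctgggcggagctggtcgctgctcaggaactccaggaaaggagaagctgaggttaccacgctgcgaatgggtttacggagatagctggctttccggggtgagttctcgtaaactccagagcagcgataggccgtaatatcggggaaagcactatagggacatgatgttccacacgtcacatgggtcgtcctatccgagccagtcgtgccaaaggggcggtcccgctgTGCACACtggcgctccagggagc
Mt2: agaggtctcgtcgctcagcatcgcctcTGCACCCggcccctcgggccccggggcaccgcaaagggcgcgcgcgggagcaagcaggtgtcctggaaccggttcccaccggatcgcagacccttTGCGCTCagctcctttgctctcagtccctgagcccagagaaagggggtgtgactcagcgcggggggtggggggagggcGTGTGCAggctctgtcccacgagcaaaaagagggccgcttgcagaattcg
Hspa1a: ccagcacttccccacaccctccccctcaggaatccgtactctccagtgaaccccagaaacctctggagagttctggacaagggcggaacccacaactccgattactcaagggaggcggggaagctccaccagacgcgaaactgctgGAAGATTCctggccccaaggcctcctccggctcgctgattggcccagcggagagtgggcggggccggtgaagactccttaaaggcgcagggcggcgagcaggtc
Ppp1r15a: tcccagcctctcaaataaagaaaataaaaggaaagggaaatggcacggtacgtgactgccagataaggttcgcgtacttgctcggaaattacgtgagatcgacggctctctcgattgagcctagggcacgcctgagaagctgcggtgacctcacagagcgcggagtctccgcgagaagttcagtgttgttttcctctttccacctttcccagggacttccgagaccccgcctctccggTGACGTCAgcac
The metal element core matched once in the Mt1 window, beginning 23 bases before the start, and 3 times in the Mt2 window, at 223, 128 and 50 bases. Over all 27025 promoter windows, 21.3% held at least 1 match and 1.28% held 3 or more, and of the windows of genes tested 29% held 1 or more. The heat shock element matched 104 bases before the Hspa1a start, and 6.78% of all windows held one, against 6 of 18 windows of the heat shock list. The CRE matched 12 bases before the Ppp1r15a start, and 1.62% of all windows held one, against 3 of 18 of the growth arrest list. Of the metallothionein, haem and iron windows, 6 of 14 (42.9%) held the metal element core, and so did 5 of 12 AP-1 windows (41.7%) and 7 of 18 windows of the EGR and NR4A list (38.9%).

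The 62 genes called higher than both blood Tem and whole liver are brighter in the sorted cells than in the unsorted organ. All 62 lay in other classes than liver-enriched, 6 of them blood-enriched. The classes and the comparison with whole liver use the same whole liver arrays, so the lack of liver-enriched genes follows largely from the rules. Of the 62, 45 were above background on all 5 liver Trm arrays, among them 24 that met the naming rule. Leaving out single arrays gave 45 to 76 such genes, and a fit of only the groups compared gave 30, 25 of them among the 62. The 24 are shown on the scale of all 35 arrays.

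**Figure D5:**
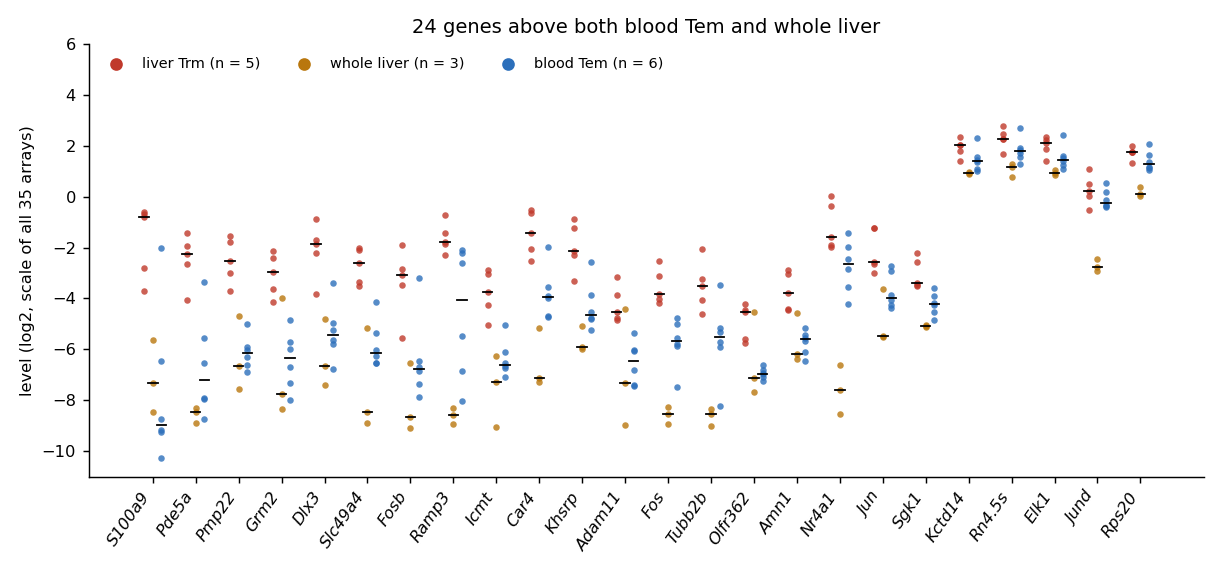
Each point is the log2 level of a gene on 1 array, on the scale of all 35 arrays, for the 24 genes above both that met the naming rule, with liver Trm left of whole liver and whole liver left of blood Tem, and a line at each group median. The genes at the left, from S100a9 to Fos, are lower in whole liver and in Tem than in liver Trm, and the 5 genes at the right, from Kctd14 to Rps20, differ from Tem by 0.71 to 0.86; the Jund and Rps20 calls are lost with scaling over all probes.

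S100a9, the larger gene of neutrophil calprotectin, led them, with -3.00, -0.27, -1.54, 0.19 and 0.00 in liver Trm, against a lowest of -10.44, a median of -8.33 and a highest of -1.59 in Tem. Tem 2 was the array that overlapped, and only 2 Tem arrays and 1 whole liver array were above background, so no fold is given (adjusted p = 5.02e-04 in limma against Tem). S100a8 and Camp, 2 further neutrophil genes as dim in Tem, were also among the 62. Pde5a, which breaks down cyclic GMP in smooth muscle and platelets, had -3.35, -2.29, -0.67, -0.57 and -1.43 in liver Trm, against a lowest of -7.98, a median of -6.81 and a highest of -3.51 in Tem, and was above background on 2 Tem arrays and no whole liver array (adjusted p = 3.43e-04 against Tem). Pmp22, a membrane protein of peripheral myelin, had -3.01, -2.66, -0.52, -0.67 and -1.73, against a lowest of -6.17, a median of -5.74 and a highest of -5.19 in Tem, 16-fold higher without overlap, with 4 Tem arrays above background. As for the plasma proteins, arrays 3 and 5 were high and arrays 1 and 2 low, but only 1 of 3 whole liver arrays was above background.

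Others of this group are known from tissues other than T cells or liver. The glutamate receptor gene Grm2 was 13.6-fold, the homeobox gene Dlx3 12.1-fold, the transporter Slc49a4 11.2-fold and Car4, a membrane carbonic anhydrase, 6.89-fold higher than in Tem, where 4, 5, 4 and 6 arrays were above background. Their liver Trm levels were -3.43, -3.27, -1.14, -1.24 and -2.16 for Grm2 and -3.13, -1.85, -0.45, -0.01 and -1.06 for Dlx3, with array 1 or 2 the lowest in both. Ramp3, a partner of calcitonin-family receptors, had an even -0.73, -0.38, -0.52, -1.42 and -1.06 in liver Trm, while Tem was split between -7.60 and -1.34. Icmt, which methylates prenylated proteins, was higher on each of the 5 liver Trm arrays than on any of the Tem arrays, which lay at -6.31 to -5.23 and of which 2 were above background (adjusted p = 8.27e-06 in limma). The AP-1 and NR4A genes Fos, Fosb, Jun, Jund and Nr4a1 were in the group too, Jun and Jund with differences from whole liver of 2.75 and 2.96. So were Sgk1, a kinase of stress and salt signals (1.57), Cxcr4 (1.25), Dusp1 (1.32), Klf4 (at least 1.81-fold) and Egr2 (at least 3.06-fold), the last 2 above background on no Tem array. Fos, Fosb and Nr4a1 were above background on no whole liver array.

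Housekeeping genes give a scale for small differences. Of 35 cytosolic ribosomal protein genes, 10 rose by 0.53 to 0.77 and none fell, but 0 were called with quantile normalization, scaling over all probes, normexp or a fit of only the groups compared, and 1 to 16 when single arrays were left out. Rps20, with 2.04, 2.10, 3.24, 2.64 and 2.57 in liver Trm, against a lowest of 1.48, a median of 1.90 and a highest of 2.00 in Tem, is an example (0.71 ± 0.23, adjusted p = 0.019 in limma). Proteasome subunits fell in 11 of 25 cases, against 25.4% over all genes, and rose in none, with a median of -0.47. The list had 23 lower with scaling over all probes and 0 with scaling to the T cell genes, where its median turned to 0.24. Among the 11 were the immunoproteasome genes Psmb8 (-0.96, -1.12, -1.50, -1.61 and -1.24 in liver Trm, against a lowest of -0.57, a median of -0.14 and a highest of 0.38 in Tem), Psmb9 and Psmb10, which shape peptides for MHC class I. Psmb8 and Psmb9 were 2.26-fold and 2.25-fold lower, and the call of Psmb10 was lost without liver Trm 3 or 5 (highest adjusted p 0.0745). Interferon-stimulated genes fell in 6 of 19 cases, near the share over all genes, and rose in 1, Irf7 (lost without liver Trm 5 or 6), with Gbp3, a guanylate binding protein, 4.51-fold lower (adjusted p = 1.12e-04); the list median of -0.44 turned to 0.27 with scaling to the T cell genes. Respiratory chain genes had 2 of 35 lower and glycolysis genes 3 of 19 lower and 1 higher.

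The Tem arrays were not alike among themselves, which bears on each contrast above. Tem 2 was the highest Tem array in Gzmb, Cxcr3, Serpinb6b, Cxcr6, Prdm1 and Runx3, and the lowest in Tcf7 and Klf2. Its level was 0.32 for Gzmb, against a Tem median of -2.84. Tem 3 was lowest in most hepatocyte and endothelial genes, where no Tem array was above background, and in Fos (-7.67). Without Tem 2, 1285 genes were called higher and 1810 lower, and without Tem 3, 989 higher and 2167 lower. Without both liver Trm 3 and Tem 3, 526 of 8394 genes were called higher and 1248 lower. In that setting 20 of 21 plasma protein genes tested and 4 of 11 AP-1 genes were higher. There 17 of 26 proliferation, 6 of 19 cytotoxic and 1 of 22 T cell receptor genes were lower.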

How the data were processed

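RNA amplified in 2 rounds and labelled with Cy3 was hybridised to 1-colour Agilent mouse arrays, 35 in all. Per the file headers, the deposited scanner files were made with Feature Extraction 11.0.1.1 and hold background-subtracted intensity per spot. The submitters' processing notes name Agilent Feature Extraction 10.7 and Partek. The authors' deposited log2 table matched quantile normalization of these signals, to a median difference of at most 0.0005916 per array, and was used as an alternative.

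Spots of a probe were averaged. The intensity was divided by each array's 75th percentile over the probes that every array of the fit had well above background (4042 probes in the 23 sorted-cell arrays, 1341 in all 35), and log2 was taken. Of 39429 probes, 27508 were named, giving 20886 genes, and 11921 stayed unnamed. A probe was kept where 3 or more arrays of 1 group had it well above background, and the probe with the highest mean stood for its gene. Models were fitted with limma 3.58.1 (R 4.3.3) to the 23 sorted-cell arrays, and to all 35 arrays for contrasts with whole organs, with Benjamini-Hochberg adjustment over all genes tested. The script was tested on simulated data.

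A candidate for naming was called, above background throughout its brighter group, of 1 direction on every slide holding both groups, and called without any 1 of the 11 arrays. Named were the candidates called higher with the largest differences (8 liver-enriched and 10 others), the 12 called lower, the 10 above both Tem and whole liver, up to 4 of each list, and a set of well-known T cell and liver genes. Other list members were named after their values were seen. The members and lists were chosen with earlier results of these data known. Alternatives were other scalings, background corrections, filters, probe summaries, samples and a slide block. Some genes are not reported here. Arrays have no read depth, and the number of arrays limits the precision. Which arrays share an animal is not given in the sources used here.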

Additional observations from a re-analysis of the deposited data

Results flagged for a closer look

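Among 318 groups of values (the named genes and the list medians, by group), 39 held 1 array far from the rest of its group. The cutoff used marks about 1 in 20 groups of independent values. These groups come from the same 11 arrays, and list medians include named genes, so they are not independent and the count is a description. Of the 39, 36 were in blood Tem and 3 in liver Trm. Values are log2 levels relative to the array's 75th percentile of bright probes.

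Tem 3 was the lowest Tem array in 19 of them. For hepatocyte genes it stood at -10.41 for Serpina1c, -9.18 for Serpina1a, -10.08 for Ahsg, -9.95 for Fabp1, -10.38 for Gsta3, -10.49 for Fbp1 and -8.84 for Proc. For endothelial, Kupffer cell and keratin genes it stood at -10.33 for Stab2, -10.29 for Egfl7, -9.22 for Gpr182, -7.79 for Clec4f and -7.34 for Krt18. Its list medians were -9.90 for amino acid, urea cycle and gluconeogenesis genes, -9.72 for complement and coagulation genes, -10.22 for stellate and cholangiocyte markers and -7.39 for erythroid and platelet markers. Most of these genes were above background on no Tem array, and values below background have no order. Tem 3 was also lowest in brighter genes: -7.67 for Fos, -2.07 for Ppp1r15a and -0.52 for the median of the T cell receptor, CD3 and CD8 list.

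Tem 2 was set apart by effector genes. It was the highest Tem array in the granzyme gene Gzmb (0.32) and its inhibitor Serpinb6b (-0.30), in the perforin gene Prf1 (-2.42), in the homing receptors Cxcr3 (0.30), Cxcr6 (0.91) and Itgal (-1.18), in Il12rb1 (-1.42), Cd8b1 (0.022) and Lcp1 (-0.36), and in the transcription factor genes Fosb (-2.76), Prdm1 (-2.83) and Runx3 (-4.03). Its median over proliferation and DNA replication genes was also the highest, at -1.35. It was the lowest Tem array in the naive and central memory genes Tcf7 (-3.29) and Klf2 (-0.019).

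Tem 5 was the highest Tem array for C3 (-5.11) and the lowest for the median of NF-kappaB subunits and inhibitors (-4.29). In liver Trm, array 3 was the highest for Dusp7 (-5.75) and Xaf1 (-5.68), neither of them above background on any liver Trm array, and array 1 the lowest for Clec4g (-3.45).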

How the results depend on the processing

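No call of the 119 named genes changed direction under any alternative run. The 1288 higher calls became 11623 with no filter on dim probes, where 20886 genes were tested, 649 with probes above background on every array of a group, 572 in a fit of only the groups compared, 526 without liver Trm 3 and Tem 3, and 818 to 1530 without single arrays, the lowest without liver Trm 5 and then liver Trm 6 (844). The 2189 lower calls became 3898 with scaling over all probes, 279 with scaling to the T cell genes, 1248 without liver Trm 3 and Tem 3, and 1398 (without liver Trm 6) to 2364 without single arrays. Lists with more members higher than lower went to 32 with scaling to the T cell genes, against 20, and those with more lower to 3, against 20. Quantile normalization, normexp and the deposited values kept both counts within 1.5 times.

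Genes higher than whole liver numbered 918, and 1426 with quantile normalization, 1465 with scaling over all probes and 1423 with the deposited values. The 62 genes above both were 30 in a fit of only the groups compared, and quantile normalization gave 81, of which 37 were among the 62. Whole liver against whole PBMC gave 2868 higher, and 1359 with scaling over all probes. Its 350 lower became 1042 with quantile normalization, 1237 with scaling over all probes, 1041 with the deposited values, and 150 (without PBMC 2) to 930 (without PBMC 1) without single arrays, with 197 without PBMC 3 and 208 without whole liver 1. Of liver-enriched genes, 362 were called higher in liver Trm, and 645 and 1014 when the class came from other whole organs or from detection. The causes were not tested.

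The replicate number in the titles, which is also the slide, as a block gave 1150 higher and 1912 lower calls, 57 genes above both, and ended the calls of Cd8a and Runx3 among named genes. Same-numbered liver Trm and Tem arrays correlated by -0.06, -0.11, -0.12, 0.44 and 0.29 in their deviations from group means, and only number 5 matched itself best. Liver Trm 1 and 2 both matched Tem 3 best, an array that stood apart from the other Tem arrays. Such correlations cannot exclude that the numbers pair the samples, so the number was tried only as a block. Signal limits the dim genes: 323 higher calls were above background on fewer than 3 liver Trm arrays.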

Other observations

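Some gene groups of T cells and other cells are given here as values only. Over all genes 14.9% were higher and 25.4% lower. Of 16 checkpoint and costimulatory genes, 3 were lower in liver Trm than in blood Tem (Cd244a, Cd27 and Tnfrsf18) and 1 higher (Cd84, 0.87), with a median of -0.31 that turned to 0.40 with scaling to the T cell genes, where 2 were higher and none lower. Of 20 BCL2 family and death receptor genes, 5 were lower, near the share over all genes, and 1 higher, with a median of -0.72. With scaling to the T cell genes 3 were higher and none lower. Monocyte and dendritic cell markers had Lyz2 and Cd14 higher and Itgax, an integrin chain that some CD8+ T cells also carry, lower, of 9 tested. Erythroid and platelet markers had 2 of 6 higher, the platelet genes Gp1bb and Clec1b, the second of which sinusoidal endothelium also carries.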
